A study of Canis lupus familiaris with 14 samples.

Results

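ESM1 (ENSCAFG00000018381) and the endothelial gene EMCN (ENSCAFG00000032716) were compared between osteosarcoma (OSA) tumors and normal bone of the same dogs, to ask whether the fall of ESM1 in tumor was larger than that of genes expressed by endothelial cells in general. They are the members of a list of 8 endothelial symbols (ESM1, VWF, KDR, CDH5, PECAM1, EMCN, FLT1 and TEK) that could be paired with an Ensembl identifier through the symbols given in the study's supplementary tables. The other 6 genes could not be paired and were not analysed here, so 2 of the 30951 genes in the count table were members. The comparison was widened with a list of 44 general endothelial genes, EMCN among them, of which 18 could be paired.

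Polyadenylated RNA was sequenced from 7 pairs of tumor and bone, so that each dog (A to G) gave 2 of the 14 libraries. The dogs were Golden Retrievers (A and F), a Rottweiler (B), a Doberman Pinscher (C), Greyhounds (D and G) and a Great Pyranees (E), all with spontaneous OSA sampled at amputation and before chemotherapy. Tumors came from the distal radius (dogs A, C, E and F), the distal femur (dog B), the proximal humerus (dog D) and the distal tibia (dog G). Bone was the second phalanx of the amputated leg, so each control came from a limb that carried a tumor, and no dog without OSA was included. Bone and tumor RNA were extracted by different protocols, and tissue and extraction cannot be told apart.

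Endothelial cells line blood vessels, and bone is supplied by capillaries and marrow sinusoids that they form. ESM1, also called endocan, encodes a secreted proteoglycan that endothelial cells release, that VEGF signaling induces, and that marks the tip cells leading new vessel sprouts. EMCN encodes endomucin, a sialomucin on the surface of capillary and venous endothelium. In bone, vessels with high EMCN and PECAM1 are known for their coupling to bone formation. VEGF signals through its receptors FLT1 and KDR, and angiopoietins signal through TEK.

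Total counts ranged from 22564544 to 34479429 in bone and from 18650945 to 32887213 in tumor (n = 7 libraries each). All 18 paired endothelial genes had counts in every library of both tissues. The osteocyte genes SOST and MEPE were counted in all 7 bone libraries, with medians of 10043 and 6198 normalized counts, against 16.8 and 11.8 in tumor. The tissues overlapped, since the tumor of dog E held 3696 and 3768, above the bones of dogs A (675 and 301) and B (738 and 532). Normalized counts are the counts divided by the DESeq2 size factor of the library. They are not corrected for gene length, so they give no order of expression levels between genes. A lower value in a piece of tissue can come from fewer endothelial cells or from less RNA per cell, and these cannot be told apart.

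ESM1 fell in every dog. Its log2 fold-change was -3.64 relative to bone (standard error 0.34, FDR = 0.00195 in edgeR's quasi-likelihood test), or 12.5-fold. In bone, ESM1 held between 3259.7 (dog C) and 13298 (dog D) normalized counts, with a median of 5346. In tumor, it held between 228 (dog G) and 888 (dog B), with a median of 542. The lowest bone value was above the highest tumor value, so the tissues did not overlap. A gene was called where its FDR was below 0.05, its mean normalized count above 10 and its change beyond 2-fold. Of all 27655 genes tested, 3.13% were called in either direction and 1.79% lower in tumor. ESM1 was taken up with its fall in these samples known, so the fall is not independent evidence.

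The size of the fall of ESM1 varied among the dogs. The tumor of dog A held 3.80% of the ESM1 level of its bone, that of dog D 4.07% and that of dog G 5.07%. The tumor of dog F held 8.27%. In dogs E, C and B the tumor kept 13.4%, 14.1% and 17.6% of the bone level. On the log2 scale of normalized counts, the changes ran from -4.71 in dog A to -2.51 in dog B, with a mean of -3.64 ± 0.92 (SD, n = 7 dogs). Dog D had the highest ESM1 of the bones, while its tumor was at the tumor median.

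EMCN changed less. Bone averaged 1665 ± 415 and tumor 881 ± 301 normalized counts (SD, n = 7 each), and the log2 fold-change, -0.97 (standard error 0.26), did not pass the test (FDR = 0.0691, edgeR). Bone values lay between 1034 (dog C) and 2287 (dog B), and tumor values between 366 (dog F) and 1266 (dog B). The tissues overlapped. EMCN was lower in the tumor of 6 dogs. In dog C the tumor held 118% of the bone level, and in the others it held between 20.3% (dog F) and 61.3% (dog A). The DESeq2 Wald test gave EMCN an FDR of 0.00504, and edgeR gave 0.0477 after filtering genes with low counts and 0.0327 without dog as a term, and its change stayed under 2-fold in all 3. Without dog C, EMCN was called lower, with a log2 fold-change of -1.19 (FDR = 0.0342, edgeR).

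ESM1 fell more than EMCN in all 7 dogs. The change of ESM1 minus that of EMCN was taken from the raw counts of both genes in the same library, so it does not depend on how libraries are scaled. It averaged -2.67 ± 1.01 on the log2 scale (SD, n = 7 dogs), a 6.36-fold larger fall, with a 95% interval of -3.65 to -1.65. The exact sign-flip permutation test over the dogs gave p = 0.0156 (two-sided), the smallest p that 7 dogs allow. Since ESM1 was taken up with its fall in these samples known, this p is not independent evidence. The study gives the lowest RNA integrity for the tumor of dog A and the bone of dog B, the dogs with the largest and the smallest fall of ESM1. Without both dogs the difference was -2.60 in the other 5 (exact permutation p = 0.0625, the smallest that 5 dogs allow). The difference was largest in dog A (-4.01) and smallest in dog F (-1.29), the dog whose EMCN was lowest in tumor relative to bone.

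Expressed as counts of ESM1 per count of EMCN, bone lay between 2.21 (dog B) and 6.74 (dog D), with a median of 3.58. Tumor lay between 0.267 (dog G) and 1.48 (dog F), with a median of 0.659. Every bone was above every tumor. The ratio was 16.1 times higher in the bone than in the tumor of dog A, 8.40 times in dog C and 2.45 times in dog F.

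**Figure D1:**
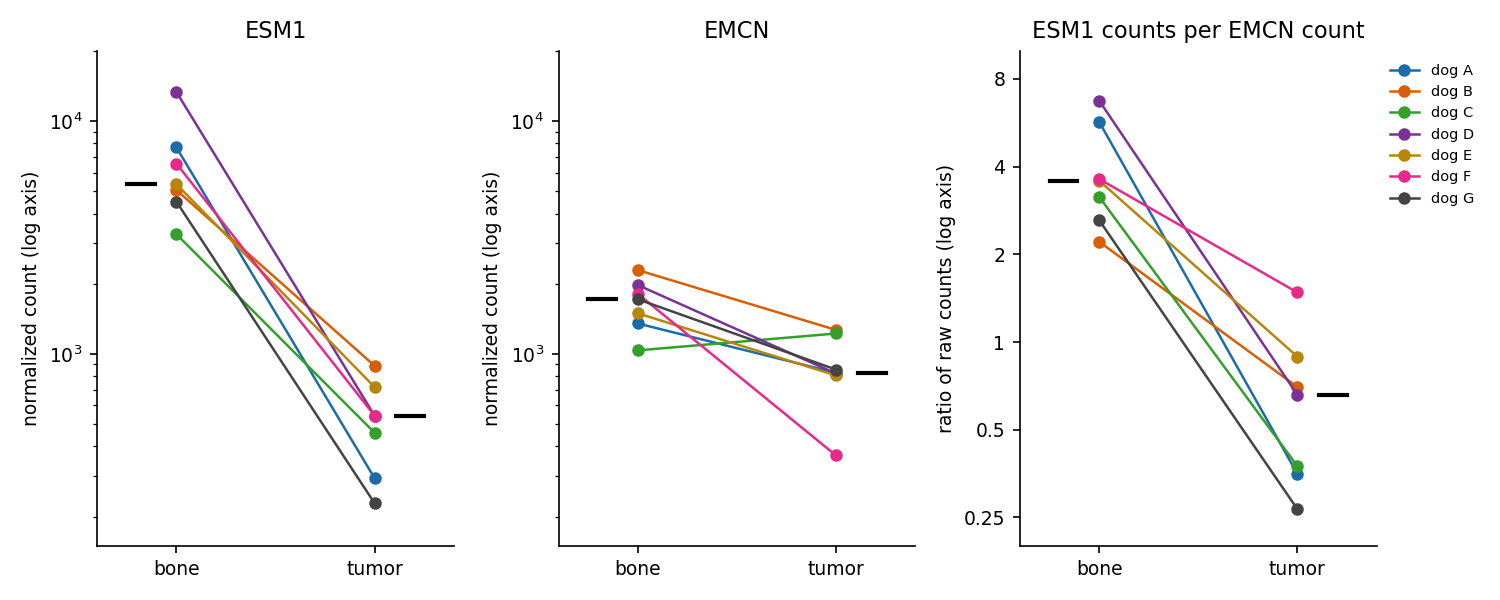
Normalized counts of ESM1 and EMCN, and raw counts of ESM1 per raw count of EMCN, in bone and tumor of 7 dogs on log axes. Lines join the libraries of 1 dog and black bars are medians. ESM1 falls from a median of 5346 to 542 with no overlap, EMCN from 1714 to 828 with dog C going up, and the ratio falls in every dog.

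The same comparison was made against each of the 18 paired general endothelial genes. ESM1 fell more than the gene in all 7 dogs for 14 of the 18, and in 118 of the 126 pairs of a dog and a gene. The same 7 changes of ESM1 enter every comparison, so neither the pairs nor the 18 comparisons are independent. The replicates are the 7 dogs. In 15 of the 18 comparisons the difference had an adjusted p under 0.05 (exact sign-flip permutation test, Benjamini-Hochberg over the 18 comparisons). As with EMCN, these p-values are not independent evidence, since ESM1 was taken up with its fall known. Without dogs A and B, 0 passed, since 5 dogs cannot give an exact permutation p below 0.0625, and ESM1 fell more in all 5 for 14 of the 18 genes. The mean differences ran from -2.84 for LDB2, a cofactor of LIM domain transcription factors, to -1.43 for BMX, a cytosolic tyrosine kinase, with a median of -2.56. The fitted log2 fold-changes of the 18 genes lay between -2.05 and -0.80, all above that of ESM1.

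The 3 comparisons that did not pass were those with CLDN5, SOX17 and BMX. CLDN5 encodes claudin-5 of endothelial tight junctions. The fall of ESM1 minus that of CLDN5 was -1.59 ± 1.98 (SD, n = 7 dogs), with an interval from -3.93 to 0.37 (exact permutation test, p = 0.109 and adjusted p = 0.116). For SOX17, an arterial transcription factor, it was -2.12, with an interval from -4.14 to 0.00 whose upper limit lay just above 0 (exact permutation p = 0.0625, adjusted p = 0.0703). For BMX the interval ran from -3.87 to 1.48 (exact permutation p = 0.25, adjusted p = 0.25), and dog F stood at 2.75. In dogs A, D, E and G, ESM1 fell more than each of these 3 genes. With variance-stabilized counts in place of log2 counts, all 18 comparisons passed.

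**Figure D2:**
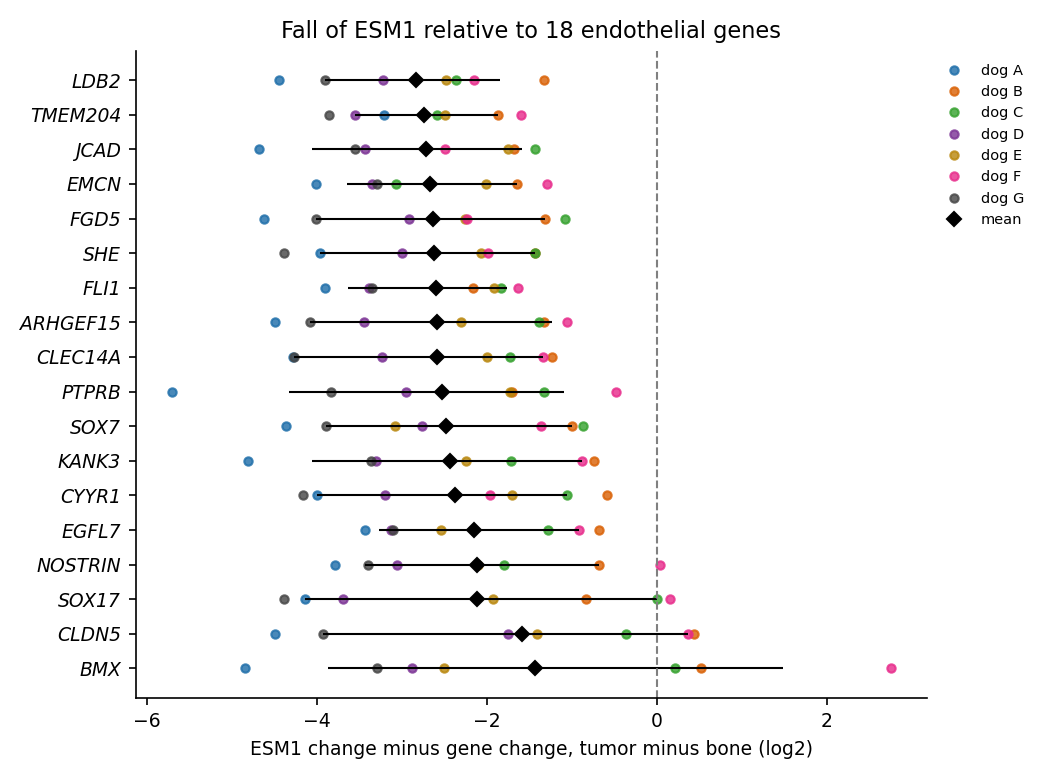
Change of ESM1 minus the change of each of 18 endothelial genes, tumor minus bone, on the log2 scale. Points are the 7 dogs, diamonds the means, and black lines the 95% intervals from the exact sign-flip test. Points left of the dashed line at 0 mark dogs in which ESM1 fell more, which holds for 118 of 126, and the lines for CLDN5, SOX17 and BMX reach 0 or cross it. The 126 points share the ESM1 changes of 7 dogs and are not independent.

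Of the 18 general endothelial genes, 8 were called lower in tumor, beside 1.79% of all genes tested, and 0 higher, and the other 10 did not pass all thresholds. Their median log2 fold-change was -1.09, beside -0.0475 over all genes tested. Symbols were held mainly for genes that the study itself calls, and 14 of the 18 were in those tables, so neither the count nor the median describes the genes of the list that could not be paired. The count also varied with the dogs, from 7 genes without dog A to 2 without dog B, D or F, 3 without dog C and 4 without dog E, and EGFL7 was the gene called in all 7 of these fits. It was 2 without dogs A and B together, and 14 with the DESeq2 Wald test.

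EGFL7, a protein that endothelial cells secrete into the matrix around vessels, fell from 7874 ± 2506 to 2944 ± 1081 normalized counts (SD, n = 7 dogs; log2 fold-change -1.49, FDR = 0.0115, edgeR). The lowest bone held 5688 and the highest tumor 4445. NOSTRIN, which binds endothelial nitric oxide synthase, fell from a median of 779 to 319 without overlap, with a log2 fold-change of -1.49 (FDR = 0.0346). FLI1, an ETS transcription factor that blood cells also use, fell from between 1646 and 2794 to between 715 and 1297 normalized counts (log2 fold-change -1.04, FDR = 0.018). These 3 were the genes of the 18 whose tissues did not overlap, against 1.44% of all genes tested whose tumors all lay below their bones. All 3 were in the study's tables of called genes, as were 14 of the 18, so this count is no evidence about the list.

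The other called genes overlapped between the tissues. CLDN5 fell from between 788 and 2040.1 normalized counts in bone to between 50.0 (dog F) and 1761 (dog A) in tumor, with a log2 fold-change of -2.05 (FDR = 0.0376). The log2 fold-changes of the others were -1.27 for CYYR1, -1.06 for CLEC14A, a receptor of the vessel lining, -1.03 for SHE and -1.01 for the Cdc42 exchange factor FGD5 (FDR 0.0209, 0.0433, 0.03 and 0.0427). Of those not called, BMX stood at -2.01 (FDR = 0.14), and the smallest value was -0.80 for LDB2 (FDR = 0.0568).

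The dogs did not rank alike by their changes of ESM1 and of the sum of the 18 paired endothelial genes. Genes with high counts weigh most in this sum. EGFL7 averaged 7874 normalized counts in bone, where the sum averaged 34032, and SOX7 averaged 429.6. The summed normalized counts of the 18 genes lay between 30963 and 39021 in bone and between 6935 (dog F) and 24469.7 (dog G) in tumor, and the tissues did not overlap. In dog A the sum changed by -0.35 on the log2 scale while ESM1 changed by -4.71. In dog G the changes were -0.55 and -4.30. Dog D had large changes of both, -1.46 and -4.62. In dog F the sum changed by -2.20, the most of the 7 dogs, and ESM1 by -3.59. Across the 7 dogs, Pearson's r of the changes was -0.30 and Spearman's rho -0.32, and r was -0.14 without the 2 dogs farthest from the median of the sum. Both changes use the same libraries, and no p is given for them.

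**Figure D3:**
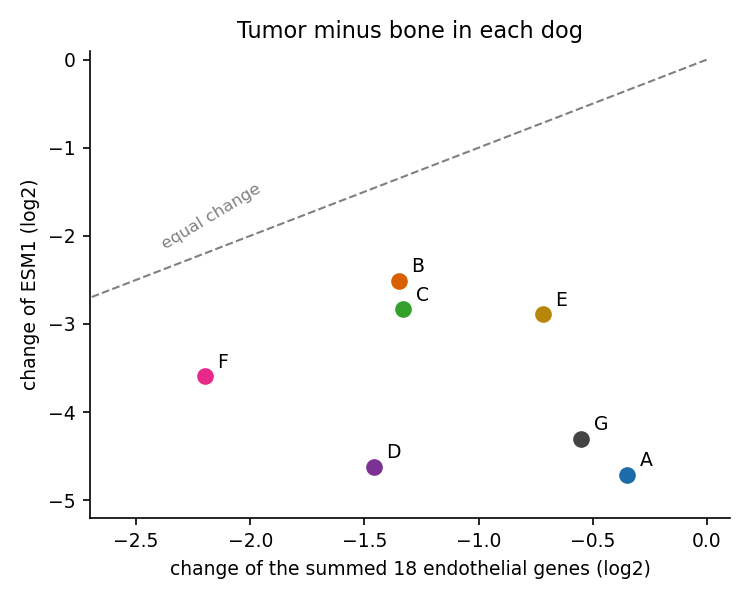
Change of ESM1 against the change of the summed normalized counts of 18 endothelial genes, tumor minus bone, log2 scale, 1 point for each of 7 dogs. All 7 dogs lie below the dashed line of equal change, and dogs A and G combine a small change of the sum (-0.35 and -0.55) with large falls of ESM1 (-4.71 and -4.30).

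Genes of fatty acid uptake by capillaries and fat cells included 2 with changes as large as that of ESM1. Of a list of 10, 8 could be paired, all of them in the tables of genes that the study calls, and 7 were called lower, beside 1.79% of all genes tested. Their median log2 fold-change was -2.28. In 7 of the 8 every tumor lay below every bone, beside 1.44% of all genes. Since names were held mainly for genes the study calls, these counts are no evidence about the list. FABP4, a fatty acid binding protein of adipocytes and capillary endothelium, fell by 4.57 on the log2 scale (FDR = 0.0147, edgeR), from between 7547 and 44686 normalized counts in bone to between 8.34 (dog F) and 3019.5 (dog D) in tumor. RBP7, a retinol binding protein of the same cell types, fell by 3.84 (FDR = 0.00286), from between 292 and 1216 to between 4.17 and 86.5. Neither was consistently above or below ESM1. ESM1 fell more than FABP4 in 3 of 7 dogs and more than RBP7 in 4.

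BTNL9 fell by 2.88 on the log2 scale (FDR = 0.0135, edgeR). GPIHBP1, which carries lipoprotein lipase to the capillary surface, fell by 2.52 (FDR = 0.00413), from a median of 2262 to 382 normalized counts. The fatty acid transporter CD36 fell by 2.03 (FDR = 0.00286), CD300LG fell by 1.96 (FDR = 0.018) and lipoprotein lipase LPL fell by 1.91 (FDR = 0.00988). ADGRF5 had the smallest value, -1.26 (FDR = 0.0748). ESM1 fell more than CD36, LPL and ADGRF5 in all 7 dogs. Without dogs A and B, 3 of the 8 genes were called.

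Of 15 genes linked to sprouting, 4 could be paired, and these did not move together. All 4 were in the study's tables of called genes, so their count is no evidence about the list. Among them, 1 was called lower and 1 higher, beside 1.79% and 1.35% of all genes tested. DESeq2 called all 4, where it called 2038 genes in all, and edgeR called 0 of them without dogs A and B. ANGPT2, an angiopoietin that tip cells release, fell by 1.17 on the log2 scale (FDR = 0.0406, edgeR), from between 797 and 1385 normalized counts in bone to between 191 (dog F) and 1169 (dog G) in tumor, and dog G went up. CXCR4, a chemokine receptor of tip cells and of leukocytes, rose by 1.59 (FDR = 0.0199). Bone lay between 205 and 508 normalized counts and tumor between 520.4 and 2528, where 1.35% of all genes were called higher. In dog F the levels were nearly equal, 508 and 520.4, from raw counts of 759 and 624, so the direction there rests on the scaling, and the other 6 dogs went up. ADM had a log2 fold-change of -1.74 (FDR = 0.0657) and COL4A1, a basement membrane collagen, of 1.04 (FDR = 0.112). ANGPT2 was called in 1 of the 7 fits that left out a dog, that without dog G, and CXCR4 lost its call without dog A, C, D, E or G (FDR 0.0517 to 0.0582). The fall of ESM1 was larger than that of ANGPT2 in all 7 dogs.

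The paired ligands of the VEGF and angiopoietin pathways differed in direction. Of 8 ligands, 4 could be paired, ANGPT2 included, while VEGFA, VEGFB, VEGFC and PGF could not. All 4 were in the study's tables of called genes, so they do not describe the ligands that could not be paired. VEGFD, a ligand that acts mainly on lymphatic vessels, rose by 3.26 on the log2 scale (standard error 0.60, FDR = 0.0164, edgeR). Its counts were low, between 1.83 and 29.9 normalized counts in bone, and reached 615 in the tumor of dog C while that of dog E held 8.45. Every dog went up, but VEGFD lost its call without dog C or F (FDR 0.0529 and 0.0504). ANGPT1 and ANGPT4, which bind TEK, had log2 fold-changes of -1.28 and -2.21 that did not pass (FDR 0.157 and 0.0768, edgeR). The DESeq2 Wald test called both (FDR 0.0205 and 0.000288). Without dog C, edgeR called ANGPT1, with a log2 fold-change of -1.67 (FDR = 0.0396).

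Of 7 receptors, NRP2, a coreceptor of VEGF and semaphorins that tumor and bone cells can also express, was the gene that could be paired. It fell from 17091 ± 4610.2 to 4963 ± 3415 normalized counts (SD, n = 7 dogs), and the fold fitted within dogs was 4-fold (FDR = 0.0102, edgeR). It kept its call in all 7 fits that left out a dog and was not called without dogs A and B together (FDR = 0.0758). The fall of ESM1 was larger than that of NRP2 in all 7 dogs.

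Of 13 genes of mural cells, the pericytes and smooth muscle cells around vessels, 4 could be paired. RGS5, a regulator of G protein signaling that marks pericytes, fell from between 1199.7 and 1818 normalized counts to between 234 and 1125, with a log2 fold-change of -1.42 (FDR = 0.0274, edgeR). The lowest bone value was above the highest tumor value, in dog G. The other 3 did not pass, with log2 fold-changes of -1.96 for PLN, -1.30 for KCNMB1 and -1.01 for PDGFRB (FDR 0.217, 0.139 and 0.0815). RGS5 was called without dog B or dog G and in none of the other 5 fits that left out a dog. The summed level of the 4 genes ran from 14443 to 22913 normalized counts in bone and from 3881 to 17684 in tumor.

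No gene of the lymphatic and sinusoidal list (2 of 9 paired) or of the adhesion list (2 of 6 paired) was called in the edgeR fit with all dogs and dog as a term, where all 4 had an unadjusted p under 0.05 and DESeq2 called all 4. All 4 were in the study's tables of called genes, which came from DESeq2, so these calls are no evidence about the lists. DESeq2 called 2038 genes in all. Without dog E, edgeR called MMRN1 (FDR = 0.0359), and without dog as a term it called MMRN1 and MADCAM1 (FDR 0.0331 and 0.0267). The limma-voom fit with all dogs and dog as a term also called MMRN1 (-2.94, FDR = 0.0465) and MADCAM1 (2.80, FDR = 0.0338). In the fit with all dogs, MMRN1 had a log2 fold-change of -2.89 (FDR = 0.0918) and GPR182 of -2.02 (FDR = 0.141). VCAM1, which binds leukocytes, stood at -2.46 (FDR = 0.0976) and MADCAM1 at 2.24 (FDR = 0.103). Both adhesion genes varied widely among tumors, VCAM1 between 202 and 8043 normalized counts and MADCAM1 between 17.2 and 595.

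**Figure D4:**
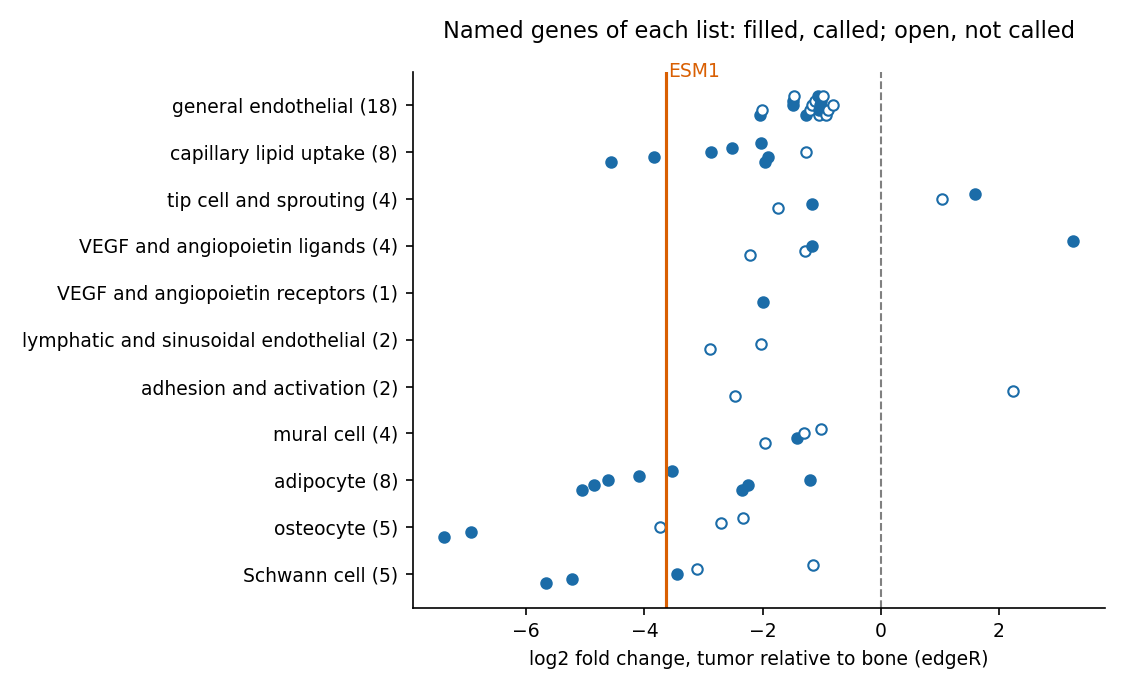
Log2 fold-changes (tumor minus bone, edgeR) of the paired genes of each list, 1 point a gene, filled where called and open where not. The solid line marks ESM1 at -3.64 and the dashed line no change. General endothelial genes lie between -2.05 and -0.80, whereas FABP4, RBP7 and genes of adipocytes, osteocytes and Schwann cells reach or pass the level of ESM1.

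Markers of other cell types were counted in the same libraries. The study describes the bone as freed of marrow and of cells outside the bone matrix. Of 9 adipocyte genes, 8 could be paired, all of them in the study's tables of called genes, so their count is no evidence about the list. All 8 were called lower, beside 1.79% of all genes tested, with log2 fold-changes from -5.06 for CIDEC to -1.20 for PPARG and a median of -3.81. Their summed level ran from 3874 to 32636 normalized counts in bone and from 971 to 2648 in tumor, with CIDEA at 0 in 1 tumor. The bones of dogs D and A had the highest adipocyte sums, 32636 and 16392, and also the highest ESM1, 13298 and 7686. The bones of dogs F and E had the next highest ESM1, 6554 and 5346, and the lowest adipocyte sums, 4055 and 3874. ESM1 fell more than PLIN1, which coats lipid droplets, in 2 of 7 dogs and more than PPARG in all 7. The part of adipocytes in the fall of ESM1 was not tested.

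All 5 osteocyte genes and all 5 Schwann cell genes described here were in the study's tables of called genes, so their counts are no evidence about the lists. Of the osteocyte genes, SOST and MEPE were called lower, beside 1.79% of all genes tested, with log2 fold-changes of -6.93 and -7.39 (FDR 0.0109 and 0.0153, edgeR). The number called was 1 without dog G, where MEPE did not pass (FDR = 0.0517), 4 without dog C, 1 without dogs A and B together, where SOST did not pass (FDR = 0.0638), and 0 without dog as a term in the model, where DESeq2 with that term called all 5. The osteocyte sum ran from 7723 to 134058 normalized counts in bone and from 111 to 13329 in tumor. Of the Schwann cell genes, 3 were called lower, 5 with DESeq2 and 0 without dogs A and B together, and 3 were at 0 in at least 1 tumor. Their sum ran from 551 to 3739 in bone and from 133 to 554 in tumor. Of 5 marrow genes, 3 could be paired and 0 were called by edgeR with all dogs, where all 3 had an unadjusted p under 0.05 and DESeq2 called 3. These 3 were also in the study's tables of called genes, so the counts are no evidence about the list. DESeq2 called 2038 genes in all. MPO, an enzyme of myeloid cells, was higher in 6 of 7 tumors, with a log2 fold-change of 2.16 that did not pass (FDR = 0.0813), and it was called without dog A (FDR = 0.0321). Their sum ran from 65.3 to 260.3 in bone and from 26.7 to 383 in tumor. The part of these cells in the fall of ESM1 was not tested.

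Among all 27655 genes tested, 384 had a lower log2 fold-change than ESM1, and 108 of the 494 genes called lower did. Of the 524 genes with a mean count in bone at least that of ESM1, a cut on counts and not on expression per length, 34 were called lower and 7 had a lower log2 fold-change than ESM1. FABP4 and the osteocyte genes SOST, MEPE and DMP1 were among these 7.

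Within each tissue, ESM1 did not follow EMCN closely. Pearson's r of their log2 CPM (counts scaled to library size), centred within tissue, was 0.24 over the 14 libraries, which ranked EMCN 546 among 2160 named genes. In bone alone r was 0.48 and Spearman's rho 0.32 (n = 7), and r was -0.54 without the 2 libraries farthest from the median, so it rested on them. In tumor alone r was 0.09 and rho -0.04. The genes with the highest r with ESM1 were CACNA2D3, a calcium channel subunit (0.74), TMEM128 (0.73), IMMP1L (0.73), ZNF667 (0.72) and the cytokine IL7 (0.71). For CACNA2D3, r in bone was 0.73 and went to 0.08 without 2 libraries. These values describe libraries that share depth and tissue, and no p is given for them.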

How the data were processed

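Total RNA of tumor and bone from 7 dogs was enriched for polyadenylated RNA and sequenced. The authors aligned reads to CanFam3.1 with HISAT2 (2.2.1) and counted them with StringTie (1.3.3), and deposited raw read counts for 30951 Ensembl genes. Strand and multi-mapping settings are not given in the sources used here. Bone and tumor RNA were extracted by different protocols.

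Symbols came from the study's supplementary tables, which pair 2267 symbols with 1 identifier each, mostly genes the study calls. The RefSeq table at hand held no Ensembl identifiers. The supplementary columns of fold-changes and p-values were not used. The members and gene lists were chosen with earlier results of these data known.

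Counts of the 27655 genes with at least 1 count were tested with edgeR (4.0.16, R 4.3.3) by its quasi-likelihood test, with TMM scaling and dog and tissue as terms. Calls were made at an FDR below 0.05, a mean normalized count above 10 and a log2 fold-change beyond 1. Values are counts divided by DESeq2 (1.42.0) size factors. Differences between the falls of ESM1 and another gene used log2(count + 0.5) within each dog and the exact two-sided sign-flip test, inverted for 95% intervals. Members are named with all values. List genes named are those called and, per list, the 3 with the largest and the 1 with the smallest change. The 5 genes most like ESM1 were ranked by r.

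Tissues share dogs, as labelled, so dog was a term in the model. The deviations of same-dog libraries from the tissue means correlated by 0.073 to 0.164 (median 0.112, against -0.0191 between dogs). p-values measure the spread between dogs. Alternatives were DESeq2, limma-voom (limma 3.58.1), other scalings and filters, no block and leaving out dogs. 1 gene of the lists is not reported here.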

Additional observations from a re-analysis of the deposited data

Results flagged for a closer look

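Of 77 groups of 7 values tested for a single value far from the rest, 6 had one, where chance gives about 1 in 20. In normalized counts, SHE stood at 2166 in the bone of dog D, against 1853 in the next, and 1899 in the tumor of dog G, against 1065. CYYR1 had 354 in the tumor of dog G, against 197. NOSTRIN had 70.1 in the tumor of dog F, against 287 in the next lowest, and its log2 change in that dog was -3.62, against -1.82. JCAD had 3122 in the bone of dog G, against 2098. No value of ESM1 or EMCN was among the 6.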

How the results depend on the processing

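ESM1 stayed called lower in all alternatives run, with a log2 fold-change between -3.86 and -3.47 and FDR values up to 0.0206. EMCN ranged from -1.19 to -0.77 when 1 dog was left out and passed without dog C. Over all genes, 866 were called, 2038 with DESeq2, between 551 and 751 when 1 dog was left out, and 270 without dogs A and B together, an alternative chosen after seeing the data. The general endothelial genes called lower numbered 8, and 14 with DESeq2, between 2 and 7 when 1 dog was left out, and 2 without dogs A and B. The difference between the falls of ESM1 and EMCN was -2.60 without dogs A and B (exact permutation p = 0.0625), and 0 of the 18 comparisons then passed, since 5 dogs cannot give a smaller p. ESM1 still fell more in all 5 dogs for 14 of the 18 genes.

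With no replicate block, so without the pairing by dog, ESM1 stood at -3.65 and EMCN at -0.93, its FDR going from 0.0691 to 0.0327. The difference between them was -2.67 (exact permutation p = 0.000583), 16 of the 18 comparisons passed, 1100 genes were called in all, and 4 general endothelial genes were called. Over the 62 other list genes, 790 of 930 alternative values kept their direction and side of the threshold, 89 lost their call, 51 gained one and 0 changed direction.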
